A study of Homo sapiens with 4 samples.

Results

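The epithelial and mesenchymal state genes are 10 genes whose products mark one or the other state of a cell: CDH1, EPCAM, KRT8 and KRT18 on the epithelial side, and CDH2, VIM, ZEB1, ZEB2, SNAI2 and S100A4 on the mesenchymal side. They were taken by symbol, with all of their probes, which gave 15 of the 47217 probes on the array and 10 of its 18348 named genes. Signals were measured on Illumina bead arrays in H9, an established human embryonic stem cell line, kept in a serum-replacement medium with basic fibroblast growth factor. RNA came from cells before gamma irradiation (0 h, 2 arrays) and from irradiated cells at 24 h (2 arrays), so the line, the medium and the slide number were common to the groups and the time after irradiation differed. No dose is stated in the sample labels, and the series is concerned with gene targeting in pluripotent cells after low dose irradiation. Nothing in the labels states that arrays of a group came from separate cultures, so p-values measure the spread between arrays, which may be technical. Unirradiated cells at 24 h were not analysed here, so irradiation and a day of culture cannot be told apart, and neither can position on the slide and group.

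In epithelia, E-cadherin (CDH1) and EPCAM join neighbouring cells at the surface, while the keratins KRT8 and KRT18 pair into the filaments of simple epithelia. In epithelial-mesenchymal transition, transcription factors of the SNAI and ZEB families repress CDH1 through E-box motifs in its promoter, N-cadherin (CDH2) takes the place of E-cadherin, and the filament protein vimentin (VIM) and the calcium-binding S100A4 become abundant. Human embryonic stem cells grow as epithelial colonies with E-cadherin and EPCAM at their surface, and vimentin is commonly found in them as well.

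Between 19705 and 20443 probes per array were detected, meaning a detection p under 0.05 against the negative control beads. Raw signals were dimmer at 24 h, with array medians of 158.4 and 175.2 at 0 h and 143.8 and 134.7 at 24 h. The values below are therefore normalized log2 signals, background-corrected and brought to a common distribution, in which one unit is a doubling of the corrected signal with its offset of 16. They are relative to all other genes on the array and are not amounts per cell. All 8 pluripotent stem cell markers analysed, among them POU5F1, NANOG and SOX2, were detected on every array, and 0 passed the test, with 2 above and 6 below 0. The lowest changes, named after their values were seen, were those of GDF3 at -0.94 (adjusted p = 0.0598, limma) and DNMT3B at -0.72 (adjusted p = 0.0511, limma). The 2 above 0 were NANOG at 0.31 (adjusted p = 0.2, limma) and POU5F1 at 0.22 (adjusted p = 0.309, limma). SOX2 stood at -0.12 (adjusted p = 0.629, limma). In a fit of 11030 genes, 149 (1.35%) were called higher and 102 (0.925%) lower at 24 h at an adjusted p under 0.05. When arrays were scaled to their 75th percentile instead, 568 were higher and 192 lower, with the median of all genes at 0.11 in place of -0.01.

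Of the 10 genes, 7 were measured and 3 were not: every probe of ZEB1, ZEB2 and SNAI2 was below detection on all 4 arrays. 2 mesenchymal genes rose, S100A4 and VIM, 0 fell, and the other 5 did not pass. The 7 measured genes had a median log2 change of 0.57, against -0.01 for all genes tested. Their 0 h and 24 h arrays did not overlap in 7 of 7 cases, and 6 of 7 had an unadjusted p under 0.05, while 61.6% and 30.3% of all genes did so. With the mean of a gene's probes, 5 of 7 had an unadjusted p under 0.05, where 3289 of 11030 genes did. Of the 7, 2 were called, where 2.28% of all genes were, and the 2 calls were for a higher signal, where 1.35% of all genes had such a call.

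**Figure D1:**
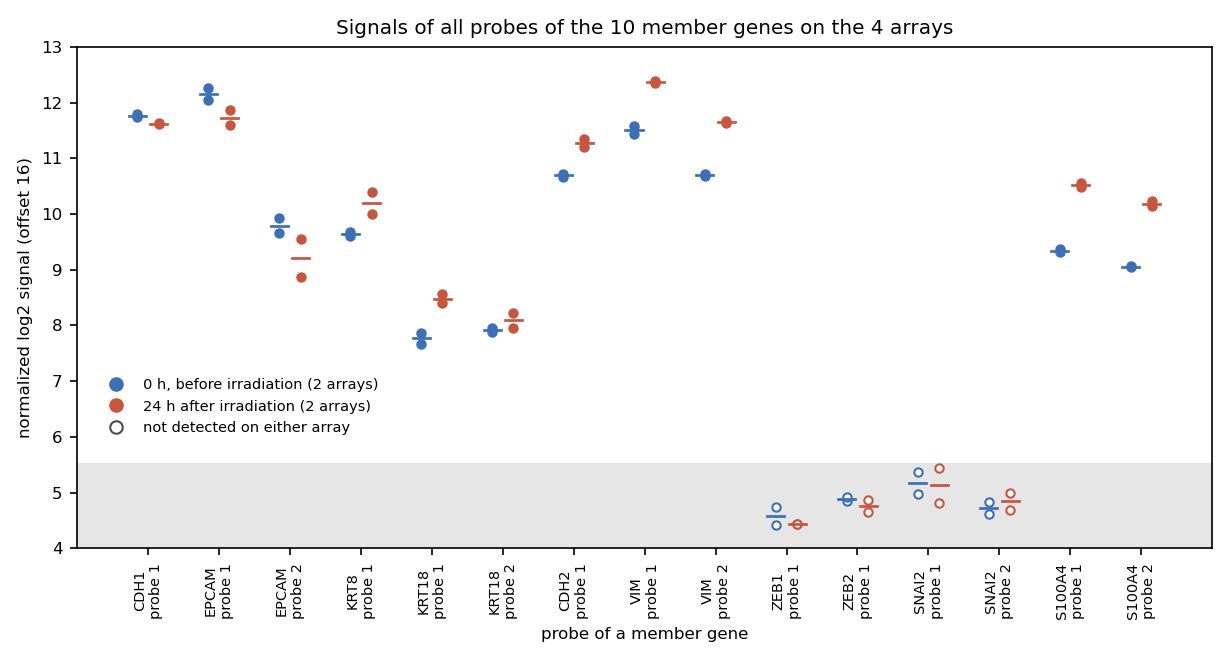
Normalized log2 signal (y axis) of the 15 probes of the 10 genes (x axis), with 1 point per array, blue for 0 h and red for 24 h, horizontal lines at the group means and open points where neither array of the group detected the probe; the grey band lies below the highest of the lowest detected signals of the 4 arrays (5.51). The probes of S100A4 and VIM lie about 1 unit higher at 24 h, those of CDH1 and EPCAM lie slightly lower, and those of ZEB1, ZEB2 and SNAI2 lie in the grey band.

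The epithelial surface proteins lay slightly lower at 24 h and did not pass the test. E-cadherin, CDH1, had 1 probe, at 11.79 and 11.74 at 0 h and at 11.61 and 11.64 at 24 h. Before normalization the 0 h arrays gave 4182 and 4700 and the 24 h arrays 2760 and 2205. After normalization both 24 h arrays were below both 0 h arrays, by a log2 change of -0.14 ± 0.10 (SE; adjusted p = 0.425, limma). EPCAM, which supports homophilic adhesion and marks pluripotent colonies, had 2 probes. Its brighter probe stood at 12.26 and 12.05 at 0 h and at 11.86 and 11.60 at 24 h. The groups were apart by -0.43 ± 0.15 (adjusted p = 0.146, limma), and the second 24 h array was the lowest. The dimmer EPCAM probe went from 9.93 and 9.65 to 9.56 and 8.87, a change of -0.58 ± 0.27 in a fit of all 20361 detected probes, with the same array lowest. EPCAM passed the test with a prior for the spread that follows signal level (adjusted p = 0.012) and without background correction (adjusted p = 0.0251).

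The keratins of simple epithelia did not lie lower with the surface proteins. KRT8, the type II partner, had 1 probe at 9.68 and 9.61 at 0 h and at 9.996 and 10.40 at 24 h. Before normalization the 0 h arrays gave 1069 and 1206 and the 24 h arrays 970.0 and 977.1, the lower pair. After normalization both 24 h arrays were higher, with a log2 change of 0.55 ± 0.17 that did not pass (adjusted p = 0.115, limma) and that was 0.35 without the second 24 h array. KRT18, its type I partner and its next protein-coding neighbour on chromosome 12, stood at 7.87 and 7.67 at 0 h and at 8.40 and 8.56 at 24 h by its brighter probe. This was a change of 0.71 ± 0.13 (adjusted p = 0.0601, limma), and the groups did not overlap. The other KRT18 probe, annotated to another transcript record, gave 7.88 and 7.95 at 0 h and 7.96 and 8.22 at 24 h. Its change was 0.18 ± 0.14, so the KRT18 probes disagree in size. This other probe was the brighter at 0 h, with a mean of 7.91 against 7.77, and the dimmer at 24 h, at 8.09 against 8.48. The probe standing for KRT18 was thus chosen through its 24 h signal, and its test is not independent of its rise. With the mean of its probes KRT18 changed by 0.44. RefSeq lists 52 pseudogenes named for KRT8 and 68 for KRT18, and binding of their transcripts to these probes was not tested.

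The other measured keratins are named after their values were seen. KRT7, a keratin of ductal and trophoblast epithelia, was detected on 3 arrays and stood at 0.63 ± 0.30 (adjusted p = 0.235, limma). KRT19, a simple epithelial type I keratin, stood at 0.25 ± 0.10 (adjusted p = 0.182, limma), and KRT10, a keratin of the suprabasal epidermis, at -0.03 ± 0.14 (adjusted p = 0.902, limma). Of the 47 keratin genes analysed, 5 were detected on at least 2 arrays and 0 passed the test. Of the remaining 42, 6 were detected on 1 array and the others on none.

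On the mesenchymal side, S100A4 changed most. This calcium-binding protein, also known as fibroblast-specific protein, binds non-muscle myosin and is used as a marker of fibroblasts and motile cells. Its brighter probe stood at 9.37 and 9.32 at 0 h and at 10.48 and 10.55 at 24 h, and its second probe at 9.06 and 9.05 and then at 10.14 and 10.23. Its brighter probe was also higher at 24 h before normalization, at 1309 and 1074 against 879.5 and 1011. After it, the arrays of each group lay within 0.1 of one another on either probe, and the groups lay more than 1 unit apart. By the brighter probe S100A4 rose 2.26-fold, with adjusted p = 0.0447 (limma), rank 125 by size of change and 29 by p-value of 11030 genes. The second probe gave a log2 change of 1.13 ± 0.12.

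Vimentin, the main intermediate filament protein of mesenchymal cells, rose 1.82-fold (adjusted p = 0.0494, limma). Its brighter probe went from 11.43 and 11.59 at 0 h to 12.39 and 12.35 at 24 h, and its other probe from 10.68 and 10.72 to 11.64 and 11.67. The probes gave log2 changes of 0.86 and 0.96, and on neither did the groups overlap. Before normalization they overlapped on both probes, the brighter giving 3290 and 4281 on the 0 h arrays and 4754 and 3655 on the 24 h arrays. The calls of S100A4 and VIM lay close to the threshold. With any 1 array left out, limma called 0 of 11030 genes (unadjusted p under 0.05 in 1838 to 3340), and the adjusted p-values of S100A4 and VIM were 0.0935 to 0.236 and 0.0975 to 0.236. The log2 changes were then 1.14 to 1.21 for S100A4 and 0.78 to 0.95 for VIM. In the fit of all 20361 detected probes, 0 probes (0%) were called and 5235 (25.7%) had an unadjusted p under 0.05; the 4 probes of S100A4 and VIM had an adjusted p of 0.0801 there (limma).

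The promoters of these genes are shown because they are the members that passed the test. The sequences are RefSeq's for GRCh38.p14, the 250 bases before the annotated start, written 5′ to 3′ on the gene's strand, for S100A4 chr1:153545807-153546056 on the minus strand and for VIM chr10:17227991-17228240 on the plus strand. Capitals mark matches to 3 motifs: CACCTG on either strand (the E-box form bound by SNAI and ZEB proteins), TGANTCA (the AP-1 site) and TATAAA on the forward strand (the TATA box).
S100A4: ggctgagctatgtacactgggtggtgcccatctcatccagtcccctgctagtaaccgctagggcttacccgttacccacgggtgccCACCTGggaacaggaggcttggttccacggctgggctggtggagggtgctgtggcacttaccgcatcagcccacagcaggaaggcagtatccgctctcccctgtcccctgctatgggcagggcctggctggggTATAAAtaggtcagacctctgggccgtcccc
VIM: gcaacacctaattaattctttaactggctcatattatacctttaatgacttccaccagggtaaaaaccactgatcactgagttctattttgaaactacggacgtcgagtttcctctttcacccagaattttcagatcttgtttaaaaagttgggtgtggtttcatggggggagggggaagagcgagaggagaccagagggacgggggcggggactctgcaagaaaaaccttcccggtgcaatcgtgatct
The S100A4 window held 1 CACCTG, which begins 164 bases before the start, and 1 TATAAA, which begins 31 bases before it. The VIM window held 0 matches to these motifs. Of 35116 such windows of 250 bases in the table, 17.5% held CACCTG, 6.57% TGANTCA and 6.8% TATAAA. Among the 13 windows of the 6 genes with an entry, CACCTG was also found in 2 of the 7 windows of ZEB1, and the second CDH2 window held 1 TGANTCA and 1 TATAAA. CDH1, EPCAM, KRT18 and SNAI2 had no entry.

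N-cadherin, CDH2, which links cells of neural and mesenchymal tissues, did not pass the test. Its single probe stood at 10.72 and 10.67 at 0 h and at 11.34 and 11.20 at 24 h, so that both 24 h arrays were higher. The log2 change was 0.57 ± 0.11 (adjusted p = 0.0647, limma). CDH2 passed in 4 of 14 other ways of processing, among them with a stricter detection filter (adjusted p = 0.0188).

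The 3 transcription factors among the members were not detectable at this signal. The ZEB1 probe lay at 4.42 and 4.74 at 0 h and at 4.43 and 4.43 at 24 h, and the lowest of its detection p-values was 0.605. The ZEB2 probe lay at 4.85 and 4.92 and then at 4.86 and 4.66, with a lowest detection p of 0.348. SNAI2, which encodes Slug, had 2 probes at 4.62 to 5.44 over the 4 arrays, with lowest detection p-values of 0.0623 and 0.239. All of these values lie under 5.43 to 5.51, the lowest signals detected on the arrays, except that the first SNAI2 probe reached 5.44 on a 24 h array whose lowest detected signal was 5.51. With 1 or 2 probes per gene, a transcript that the probes miss cannot be told from one that is absent.

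**Figure D2:**
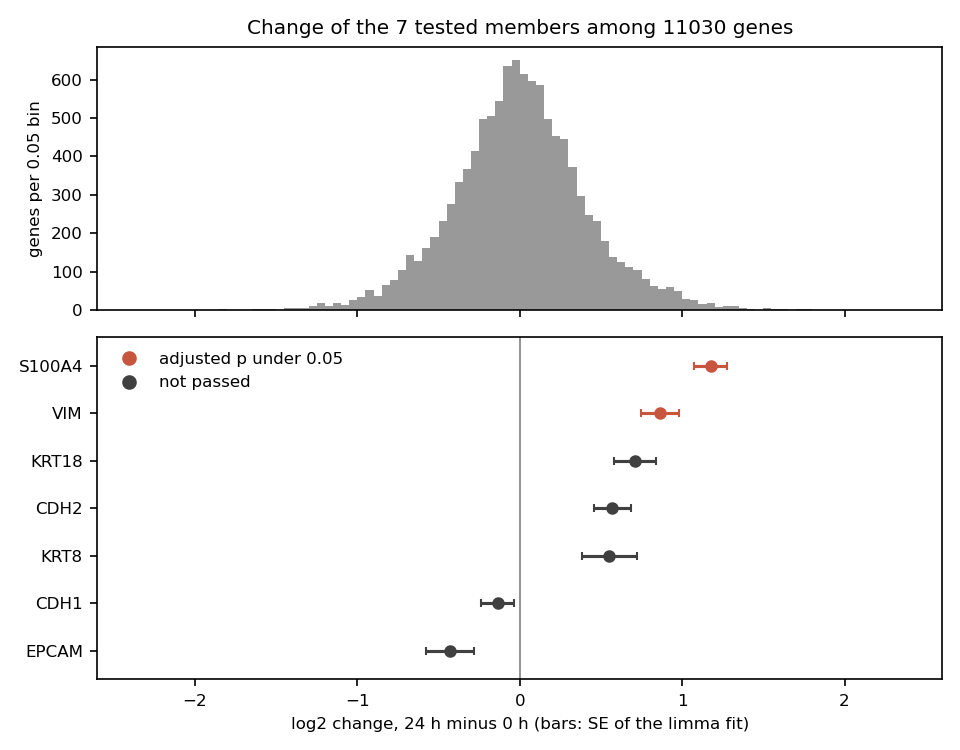
The upper panel counts the 11030 tested genes by log2 change, 24 h minus 0 h, in bins of 0.05; the lower panel gives the changes of the 7 measured members on the same axis, with bars for the SE of the limma fit and red for adjusted p under 0.05. S100A4 (1.18) and VIM (0.86) lie in the upper tail, KRT18, CDH2 and KRT8 lie between 0.55 and 0.71, and CDH1 and EPCAM lie below 0.

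Changes of paired members were set against each other within each array, which removes any shift common to an array. At 0 h, CDH2 lay under CDH1 by log2 differences of -1.07 and -1.06, while the 24 h arrays gave -0.28 and -0.44, so their changes differed by 0.71. VIM minus EPCAM gave -0.84 and -0.45 at 0 h, then 0.54 and 0.76 at 24 h, a difference of 1.29. In both pairs the 24 h arrays lay above the 0 h arrays by more than the spread within a group. For KRT8 minus KRT18 the values were 1.81 and 1.94 before irradiation and then 1.59 and 1.84 at 24 h, which overlap, with a difference of -0.16. The exact two-sided permutation p-values were 0.333, 0.333 and 0.667, where 2 arrays per group allow no p below 0.333. Levels of different probes are not comparable, so these values carry a meaning only as differences between times. Without normalization between arrays, where the median of all genes stood at -0.65, S100A4 and VIM stood at 0.41 and 0.16, CDH2, KRT8 and KRT18 turned to -0.18, -0.22 and -0.01, and CDH1 and EPCAM stood at -0.87 and -1.15; the difference was then 0.69 for the cadherins and 1.32 for VIM minus EPCAM.

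**Figure D3:**
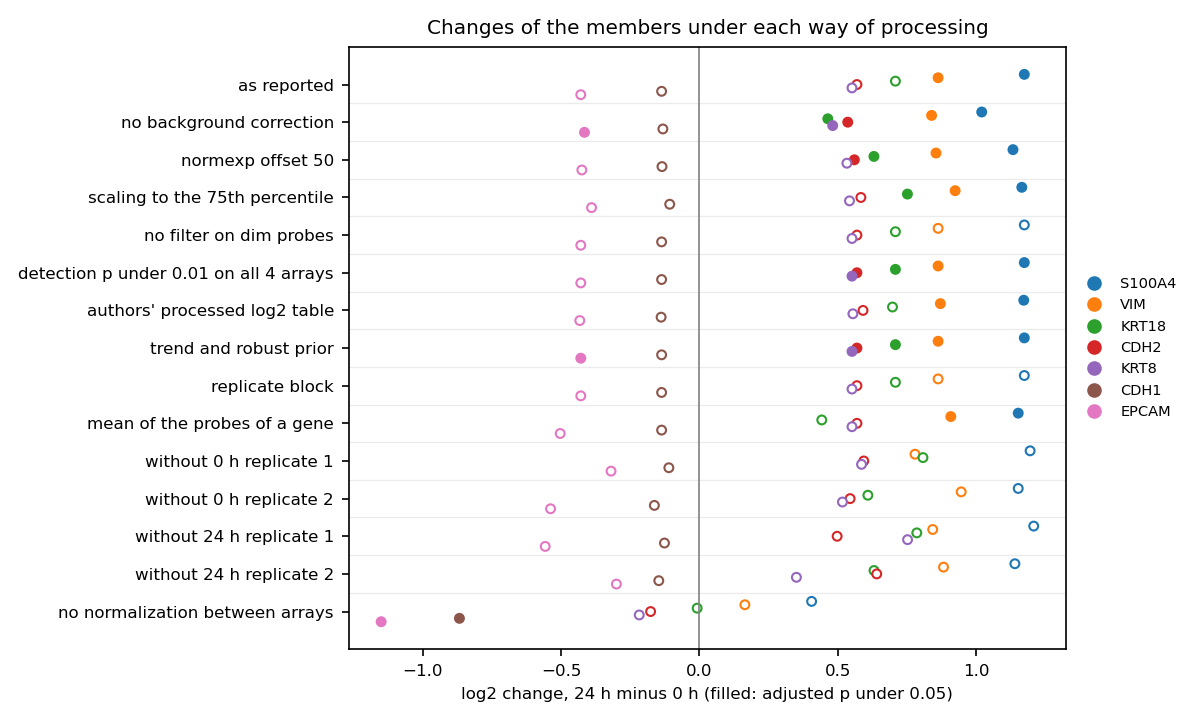
Log2 change, 24 h minus 0 h (x axis), of the 7 measured members under each way of processing (y axis), with filled points for adjusted p under 0.05 in that fit. S100A4 and VIM lie to the right of 0 and CDH1 and EPCAM to the left in all 15 fits, while KRT8, KRT18 and CDH2 lie to the right of 0 in all but the fit without normalization between arrays.

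Genes that build epithelial junctions, or that drive or follow the mesenchymal state, were read from the same fit. Over these lists and the keratin, S100 and cadherin families, 97 genes that are not among the 10 were measured, and 3 were called higher and 0 lower, where 1.35% of all genes were called higher and 0.925% lower. Over all genes tested, 5450 of 11030 had a change above 0 and the median was -0.01. Of 15 adherens junction and desmosome genes, 11 were above 0, the median was 0.15 and 0 passed. NECTIN1, an adhesion receptor of adherens junctions, stood at 0.62 ± 0.11 (adjusted p = 0.0596, limma), and DSP, the desmosomal plaque protein desmoplakin, at 0.52 ± 0.10 (adjusted p = 0.0647, limma). Of 18 tight junction and polarity genes, 9 were above 0, the median was 0.03 and 0 passed. The polarity protein PARD6A stood at 0.90 ± 0.18 (adjusted p = 0.0655, limma) and the claudin CLDN3 at 0.87 ± 0.18 (adjusted p = 0.0673, limma).

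Among 16 epithelial regulators and surface proteins, OVOL2 rose and 15 did not pass, with a list median of 0.17, 12 above 0 and 4 below. OVOL2, a zinc finger factor known to repress ZEB1 and hold the epithelial state, stood at 8.33 and 8.57 at 0 h and at 9.49 and 9.73 at 24 h. Both 24 h arrays were higher, a 2.23-fold rise (adjusted p = 0.0481, limma). PRSS8, the membrane protease prostasin, stood at 0.56 ± 0.15 (adjusted p = 0.0896, limma), and AP1M2, a subunit of an epithelial sorting adaptor, at 0.32 ± 0.16. GRHL2, a factor that maintains epithelial identity, is named after its values were seen. It was detected on both 0 h arrays and on neither 24 h array. GRHL2 was thus kept for the fit through its 0 h arrays alone, so its direction and its test are not independent of the filter. The 0 h arrays gave 5.555, near the lowest detected signals, and 6.041, and the 24 h arrays 5.08 and 5.17. By the group means it was at least 1.24-fold lower at 24 h, which did not pass (adjusted p = 0.104, limma).

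Of 12 transcription factors of epithelial-mesenchymal transition analysed, ZEB1, ZEB2 and SNAI2 included, 10 were not detected on 2 arrays, and 8 of these, such as SNAI1, TWIST1 and PRRX1, were detected on none. TCF4, an E-protein, stood at 0.07 ± 0.26 (adjusted p = 0.879, limma). SNAI3, named after its values were seen, was under detection on both 0 h arrays and detected on both 24 h arrays. It was kept for the fit through its 24 h arrays alone, so its direction and its test are not independent of the filter. SNAI3 stood at 5.345 and 5.433 at 0 h and at 5.586 and 6.435 at 24 h, the first 24 h value lying near the lowest detected signals. By the group means it was at least 1.49-fold higher at 24 h, which did not pass (adjusted p = 0.243, limma).

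Of 15 other mesenchymal genes measured, ITGA5 rose and 14 did not pass, with a median of 0.17. Changes were above 0 in 10 and below 0 in 5, the lowest, named after its value was seen, being CD44 at -0.53 ± 0.40. ITGA5, the alpha chain of the fibronectin receptor, went from 6.70 and 6.71 at 0 h to 7.91 and 8.15 at 24 h. The groups did not overlap, and the rise was 2.51-fold (adjusted p = 0.0447, limma). The receptor tyrosine kinase AXL stood at 0.67 ± 0.11 (adjusted p = 0.0525, limma) and the proteoglycan BGN at 0.58 ± 0.11 (adjusted p = 0.063, limma). Fibronectin itself, FN1, had 3 probes, of which 1 was detected on 1 array.

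In the TGF-beta pathway, a classical inducer of the transition, CCN2 rose and 11 of 12 measured genes did not pass, with a median of 0.22. Changes were above 0 in 7 genes and below 0 in 5. The lowest, named after their values were seen, were SKIL at -0.50 ± 0.16 and the receptor TGFBR2 at -0.41 ± 0.15. CCN2, a matricellular protein, went from 9.69 and 9.70 at 0 h to 10.52 and 10.47 at 24 h, a 1.74-fold rise (adjusted p = 0.047, limma). LTBP3, which binds latent TGF-beta, stood at 0.88 ± 0.17 (adjusted p = 0.0646, limma), and the signal transducer SMAD3 at 0.71 ± 0.12 (adjusted p = 0.0563, limma). The ligands TGFB1, TGFB2 and TGFB3 and the receptor TGFBR1 were not detected on any array.

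**Figure D4:**
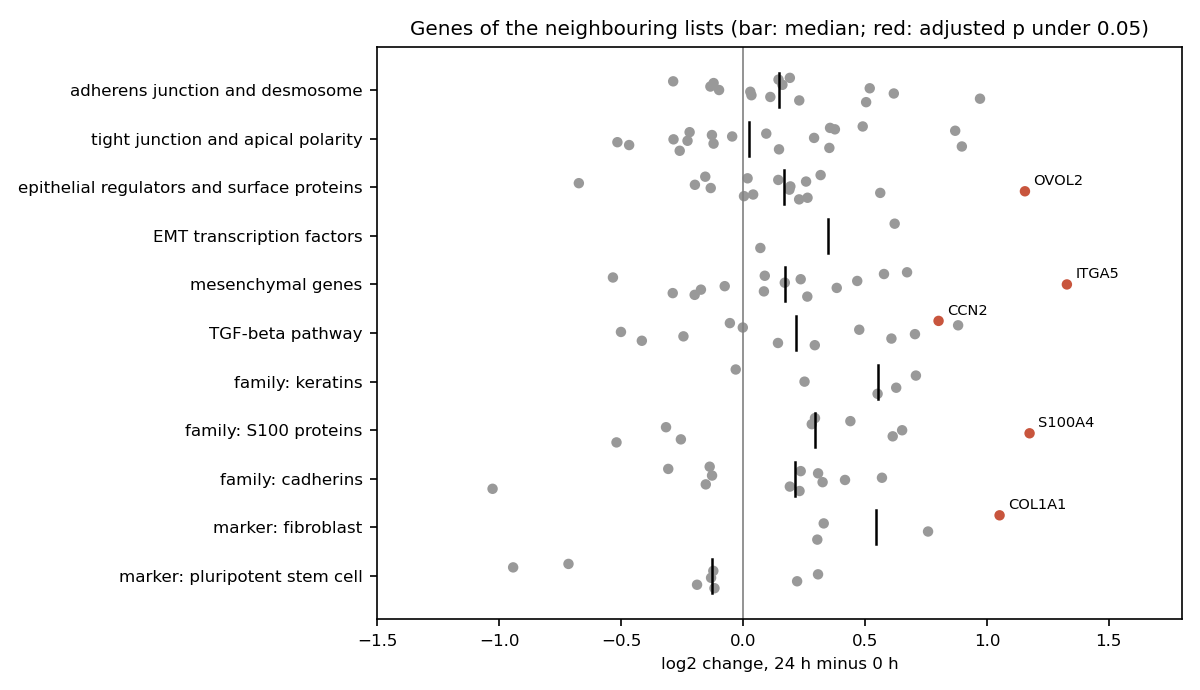
Log2 change, 24 h minus 0 h (x axis), of each measured gene in 11 lists and families (y axis; the families hold their members among the 10 genes), with a bar at the list median and red points for adjusted p under 0.05. The called genes OVOL2, ITGA5, CCN2, S100A4 and COL1A1 lie to the right of 0, and most other genes lie between -0.5 and 0.5.

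Relatives of S100A4 and of the cadherins were also compared. Of 18 S100 genes, 9 were measured, 6 above 0 and 3 below, with a median of 0.30, and S100A4 was the member called. S100A16, which lies 2 protein-coding genes from S100A4 on chromosome 1, stood at 0.65 ± 0.12 (adjusted p = 0.0579, limma). S100A6 stood at 0.61 ± 0.30 (adjusted p = 0.25, limma), with one 24 h array at 8.44 and the other, at 7.60, near the 0 h values of 7.50 and 7.32. S100A3, the next protein-coding gene to S100A4, was not detected on any array. Of 20 cadherins, 12 were measured, 7 above 0 and 5 below, with a median of 0.21, and 0 passed. CDH6, or K-cadherin, stood at -1.03 ± 0.16 (adjusted p = 0.0525, limma), from 8.47 and 8.08 at 0 h to 7.24 and 7.26 at 24 h, and was lower in all 15 fits.

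Markers in use for cells other than stem cells were read beside the rises of S100A4 and VIM. Whether the stem cells themselves express these markers was not tested. Of 10 fibroblast markers, 4 were measured and COL1A1, a collagen chain, was called higher, by 1.05 ± 0.14 log2 units (adjusted p = 0.0498, limma). Their summed signal, the sum of 2 raised to the log2 values, was 4706 to 4889 at 0 h and 6562 to 6591 at 24 h. The other measured markers lay above 0 and did not pass, with PDGFRB at 0.76, COL1A2 at 0.33 and THY1 at 0.30. THY1 was the brightest measured fibroblast marker and weighed most in the sum, at 11.64 and 11.65 at 0 h and at 11.92 and 11.98 at 24 h. Of the remaining markers, COL3A1, LUM and PDGFRA were detected on no array, and DCN, FAP and POSTN on 1 array each. Of 8 trophoblast markers, 4 were measured, 0 passed and the summed signal was 456.4 to 494.6 at 0 h and 630.2 to 777.5 at 24 h, with GATA2, GATA3 and HAND1 not detected. TFAP2C weighed most in this sum, at 8.50 and 8.33 at 0 h and at 9.20 and 8.96 at 24 h. KRT7 and CGB5 lay above 0 near background. VGLL1 stood at -0.43, detected on both 0 h arrays and on neither 24 h array, so it was kept through its 0 h arrays alone. Of 5 endothelial markers, 3 were measured, 0 passed and the sum went from 341.0 and 368.1 to 498.1 and 447.8, with PECAM1 and CDH5 not detected. TEK, the brightest of them, stood at 0.35, KDR at 0.81 and VWF at -0.19. Of 4 leukocyte markers, 2 were measured, 0 passed and the sum went from 910.2 and 1064 to 1411 and 1425, with PTPRC and CD3E not detected. LCP1, the brighter of the measured leukocyte markers, stood at 0.61 and CD14 at -0.82, with a list median of -0.11. The 8 stem cell markers summed to 44940 and 44650 at 0 h and to 39070 and 40330 at 24 h. DNMT3B, one of the brighter of them, went from 13.12 and 13.14 to 12.46 and 12.37, while NANOG and POU5F1 lay above 0. Whether cells of these other types were present, or had any part in the rises of S100A4 and VIM, was not tested. In RNA from a whole culture, a change in the share of a cell type and a change in RNA per cell cannot be told apart.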

How the data were processed

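Per the file headers, the authors' deposited non-normalized table holds, for every array, the linear intensity of each probe averaged over its beads, together with its detection p-value. The authors' processed table holds log2 values of 34466 of the 47217 probes; limma is named for it in the submitters' processing notes, and its version is not given in the sources used here. Against the values computed here, each of its columns had a correlation across probes of 0.99998, a largest difference of 0.0556 to 0.0563 and a median of 5.35 to 5.36, so its scale was taken as log2 without centring. Its rule for choosing probes stays unknown.

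Background correction and quantile normalization used neqc (limma 3.58.1, R 4.3.3; offset 16), which fits the background from the detection p-values. Probes with a detection p under 0.05 on at least 2 of 4 arrays were kept (20361). The platform annotation gave 1 symbol for 26358 probes, several for 3, and Entrez identifiers matched to RefSeq changed 0 symbols. The probe with the highest mean over all arrays, the 24 h arrays included, stood for its gene. Genes, and in a second fit all kept probes, were tested with lmFit and eBayes, two-sided, with Benjamini-Hochberg adjustment over all features; the gene fit had 2 residual and 2.56 prior degrees of freedom. Changes are 24 h minus 0 h on this log2 scale; a bound divides by the higher of the gene's own and the lowest detected signal. The gene fit was tested on simulated data for 11030 genes with 200 changed: 91% of log2 changes of 3 and 98% of 5 were recovered, and 7 unchanged genes were called. The largest change of a member was 1.18, and changes of that size were not simulated. These rates therefore do not tell how often changes like those of the members are recovered. For arrays, their number (2 per group) limits the precision.

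The members, the lists and the tests were chosen with earlier results of these data known. All members were named; of each other list, called genes and the 2 largest uncalled changes detected on all arrays; of marker lists, counts, summed signals and undetected genes. Values of single markers, and of genes so marked in the text, were named after being seen. No other genes of like pattern were sought, since 4 arrays allow no such ranking. Listed genes without a probe here were not analysed. Alternatives changed the background correction, normalization, filter, prior, probe choice, source table and replicate block, and left out each array.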

Additional observations from a re-analysis of the deposited data

How the results depend on the processing

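CDH1, EPCAM, VIM and S100A4 kept their direction in all 14 alternatives, and KRT8, KRT18 and CDH2 in 13, the exception being no normalization between arrays, an alternative chosen after seeing the data. S100A4 and VIM passed in 7 of 14 each, KRT18 in 5, CDH2 in 4, KRT8 and EPCAM in 3 and CDH1 in 1. Members called higher numbered 5 without background correction, with detection on all 4 arrays and with the trend and robust prior, 4 with an offset of 50, and 0 with no filter (10 members tested), with the replicate block, without normalization between arrays and with any array left out; 1 was lower without background correction and with the trend and robust prior, and 2 without normalization between arrays. Member probes called higher numbered 7 without background correction, 4 with an offset of 50, 6 with detection on all 4 arrays and 7 with the trend and robust prior; 1 was lower with that prior and 3 without normalization between arrays.

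Other listed genes called higher and lower numbered 20 and 2 without background correction, 14 and 2 with an offset of 50, 13 and 1 with scaling to the 75th percentile, 17 and 2 with detection on all 4 arrays, 20 and 2 with the trend and robust prior, 0 and 0 with no filter, with the replicate block and with any array left out, and 2 and 27 without normalization between arrays. Over all genes, the counts higher and lower were 1156 and 1163 without background correction, 701 and 656 with an offset of 50, 568 and 192 with scaling to the 75th percentile, 960 and 884 with detection on all 4 arrays (8767 genes), 222 and 166 with the authors' table, 1257 and 1265 with the trend and robust prior, 66 and 5360 without normalization between arrays, and 0 and 0 with no filter (18348 genes, 3456 at an unadjusted p under 0.05), with the replicate block (3828) and with any array left out. The cause of these differences was not tested.

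The replicate block pairs arrays that share only a number, and the smallest adjusted p in that fit was 0.07 (limma). Deviations from the group means correlated at 0.15 across genes for the same number. With 2 arrays per group this is 1 value, since crossed numbers give -0.15 by construction. The KRT8 minus KRT18 difference was 0.0176 without background correction and 0.109 with the mean of the probes; over all alternatives CDH2 minus CDH1 ranged from 0.625 to 0.788 and VIM minus EPCAM from 1.10 to 1.49. Leaving out 1 array moved uncalled changes to 0.147 to 0.489 for AP1M2, -0.21 to 0.35 for TCF4 and 0.194 to 1.03 for S100A6. The probe standing for a gene was chosen again in each of these fits. For NECTIN1, leaving out a 0 h array switched the probe, so the changes of 0.967 and 0.942 belong to another probe. Genes near background are limited by signal: ZEB1, ZEB2 and SNAI2 had no test.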
